A study of Mus musculus with 4 samples.

Results

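Collagens and laminins are the structural proteins of the muscle extracellular matrix, and their transcripts were followed in hindlimb muscle of mice without corticotropin-releasing factor receptor 2 (KO, genotype Crhr2-/-) and of wild-type littermates (WT, Crhr2+/+). Members were chosen by gene symbol alone, as every probe set with a single symbol of a collagen or laminin chain. This gave 57 of 12422 tested probe sets and 39 of 8251 genes, namely 31 collagens and 8 laminin chains. The laminin alpha 2 chain is not analysed here. Of the 39 genes, 14 had more than 1 probe set, and the brightest one on average over the 4 arrays was then used for the gene.

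Fibrillar collagens form long rods that pack side by side into the tension-bearing fibrils of tendon, epimysium and endomysium, and are made mainly by fibroblasts. Type IV collagen and the laminins, trimers of an alpha, a beta and a gamma chain, assemble into the sheet-like basement membrane that wraps each muscle fibre, capillary and Schwann cell. Other collagens tie the layers together, coat fibril surfaces or span cell membranes.

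The samples were combined gastrocnemius and soleus muscles from untreated male mice of 6.5 months on a mixed C57BL/6 and 129 background. Each genotype supplied 4 mice, whose RNA was pooled in pairs and put on 1 Affymetrix U74Av2 array per pair, so each genotype has 2 replicates and the spread between single mice is not seen. The labels give the genotype but not how the receptor gene was disrupted, and they exchange the contents of the tissue and genotype fields, so titles were used. Values are linear signal intensities in arbitrary units, given below as replicate 1 and then replicate 2, and log2 fold changes are KO minus WT on log2(intensity + 14) with the standard error (SE) of the limma fit over all probe sets. Levels are compared between pools for the same probe set only, since probe sets differ in brightness for the same amount of RNA.

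Crhr2 itself read 100.4 and 75.1 in the KO pools, against 154 and 192 in the WT pools on its brighter probe set, with a log2 fold change of -0.88 ± 0.25, and no value overlapped (limma adjusted p = 0.803). Its dimmer probe set overlapped between genotypes, at 36.7 and 22.7 in the KO pools, against 18.8 and 45.3 in the WT pools (log2 fold change -0.032 ± 0.43). Skeletal muscle markers were bright on all arrays, 13 of 14 lying above the median probe set, with Acta1, the skeletal alpha actin, at 19099 and 21770.3 in the KO pools, against 20692 and 19525 in the WT pools. The summed level of 11 exocrine pancreas markers was 13640.5 and 4113 in the KO pools and 1875 and 1798 in the WT pools, and that of 14 liver markers was 370.2 and 494 in the KO pools and 767 and 2091 in the WT pools. KO replicate 1 was thus the highest array for pancreas markers and WT replicate 2 for liver markers, and results are therefore also given below without single arrays. Without overlap, 9 of the 11 pancreas markers were higher in KO and 7 of the 14 liver markers lower, where 16.5% and 18.2% of all genes were. For these markers, leaving out 1 array therefore does not remove the difference between genotypes. The remaining liver markers overlapped between genotypes, and 11 of the 14 were highest in WT replicate 2.

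No collagen or laminin passed the test between genotypes. Of the 57 member probe sets, 0 had a limma adjusted p under 0.05, as for 0% of all probe sets, and the smallest adjusted p was 0.902. At an unadjusted p under 0.05 there was 1 member probe set lower in KO, where 2.86% of all probe sets were, and 0 higher in KO, where 2.57% were. With 2 arrays against 2, an exact two-sided permutation test cannot give a p below 0.333. At 1 probe set a gene, 22 members were higher in KO on average and 17 lower. Their median log2 fold change was 0.015, against -0.0044 over all genes. The genotypes did not overlap for 3 members that were higher in KO and 5 that were lower, where 16.5% and 18.2% of all genes did so. Among the members above the median probe set these were 1 higher, Col5a1, and 3 lower, Lamb2, Col7a1 and Col6a2, against 15.7% and 18.9% of all genes above it.

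How closely a genotype difference was bounded depended on the signal. Of the 39 genes, 22 lay above the median probe set (68.7) and these carry the account below. Among these 22, 17 had a 95% confidence interval that stayed within a 2-fold difference in either direction, and 11 had one within 1.5-fold, as did 85.6% and 43.4% of all genes above the median probe set. The narrowest interval spanned 0.54 log2 units, for Col1a2, and the widest 1.96, for Col9a1.

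**Figure D1:**
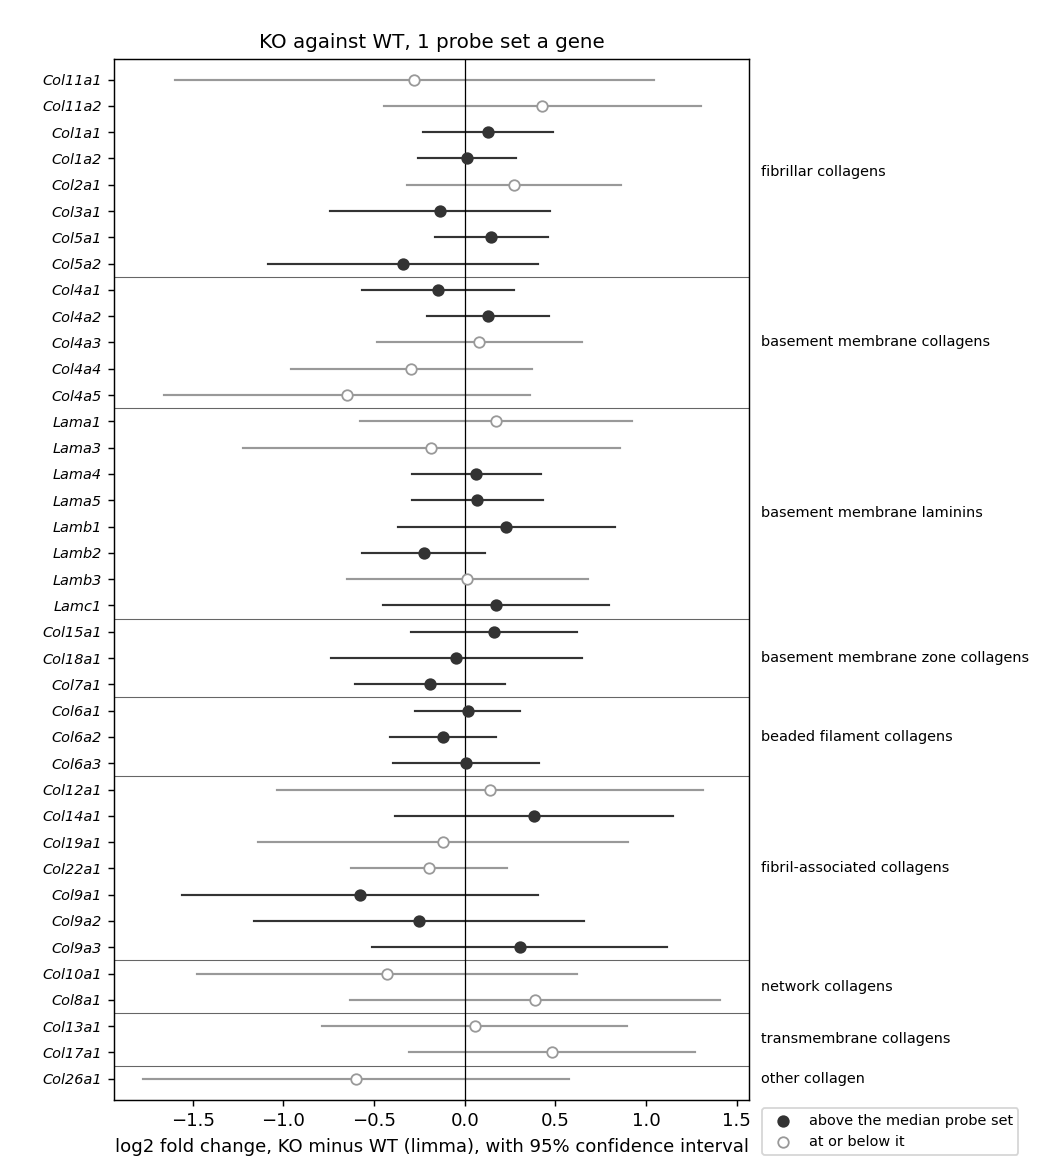
Log2 fold change of KO against WT for each of the 39 genes (points) with its 95% confidence interval (lines), from the limma fit over all probe sets, grouped by role down the page. Filled points are the 22 genes above the median probe set and open points the 17 at or below it. Every interval includes 0.

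Type I collagen, the main fibril protein of muscle connective tissue, did not differ between genotypes beyond the spread of the pools. Col1a1, which encodes its alpha 1 chain, read 1705 and 1573 in the KO pools, against 1715 and 1306 in the WT pools. The KO pools lay between the WT pools, and the log2 fold change was 0.13 ± 0.15 (95% interval -0.23 to 0.49). Col1a2, the alpha 2 chain, read 1176 and 1150.1 in the KO pools, against 1235 and 1075 in the WT pools, again with both KO values inside the WT range. Its log2 fold change of 0.013 ± 0.11 had an interval equal to 0.836- to 1.22-fold, the narrowest among members above the median probe set. The other probe sets of the pair gave 0.083 ± 0.17 for Col1a1 and 0.21 ± 0.18 for Col1a2, the same sign as the brighter ones. The pools were ordered otherwise on the second Col1a2 set, at 461 and 581 in the KO pools, against 393 and 504 in the WT pools. There KO replicate 2 lay above both WT pools, and WT replicate 2 above WT replicate 1.

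The promoter window of Col1a2, from RefSeq, is shown because this gene gave the tightest bound on a genotype difference. It covers 250 bases before to 50 after the annotated start, and the capitals mark matches to CCAAT or TATAA on either strand. The window holds 2 CCAAT matches, 1 on each strand, and no TATAA. Bases past its ends were not searched, so this does not show that the promoter lacks TATAA. For comparison, CCAAT is found in 37.4% of 32851 windows of this length and TATAA in 24.9%. Windows were listed for 26 of the 39 members.
Col1a2, GRCm38.p6 chr6:4505368-4505667, plus strand: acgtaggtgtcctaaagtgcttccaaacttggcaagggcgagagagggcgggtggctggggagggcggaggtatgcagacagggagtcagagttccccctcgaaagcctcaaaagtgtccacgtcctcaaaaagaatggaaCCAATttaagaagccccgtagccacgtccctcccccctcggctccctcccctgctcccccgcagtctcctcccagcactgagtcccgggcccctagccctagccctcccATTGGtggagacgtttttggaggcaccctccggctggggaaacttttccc

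Col3a1 and Col5a2, whose type III and type V collagens form fibrils together with type I, varied more between pools of 1 genotype than between genotypes. Col3a1, the single chain of type III collagen, read 853 and 604 in the KO pools, against 989.6 and 631 in the WT pools. In both genotypes replicate 1 was the higher pool, by 0.49 log2 units in KO and 0.64 in WT, against a log2 fold change of -0.14 ± 0.25 between genotypes. Replicate 1 was also higher on its 2 dimmer probe sets, 1 of which read 174 and 119 in the KO pools, against 165 and 107 in the WT pools, and the other 60.9 and 49.8 in the KO pools, against 95.3 and 38.1 in the WT pools. Col5a2, a chain of type V collagen, which limits fibril diameter, read 217 and 149 in the KO pools, against 307 and 174 in the WT pools. Replicate 1 again exceeded replicate 2, by 0.50 log2 units in KO and 0.77 in WT, and the log2 fold change was -0.34 ± 0.31. Col3a1 and Col5a2 are adjacent protein-coding genes in the mouse reference assembly GRCm38.p6. On the brightest Col3a1 probe set both ran in the same order over the 4 pools. That order was WT replicate 1, KO replicate 1, WT replicate 2 and KO replicate 2 from high to low. The basement membrane gene Col4a1 had this order too, as did 4.94% of all genes above the median probe set. The 2 dimmer Col3a1 probe sets each ran in another order.

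Col5a1, the other main chain of type V collagen, was the 1 fibrillar member above the median probe set whose genotypes did not overlap. It read 379 and 394 in the KO pools, against 334 and 363 in the WT pools, higher in both KO pools, with a log2 fold change of 0.15 ± 0.13 (limma adjusted p = 0.908). Its second probe set went the other way, at 81.2 and 46.6 in the KO pools, against 103 and 81.6 in the WT pools, also without overlap (log2 fold change -0.48 ± 0.34). Of the 8 fibrillar members, 5 were higher in KO and 3 lower. Their median log2 fold change was 0.071, and became -0.076 without WT replicate 2. Over the 5 above the median probe set it was 0.013. The 3 dim members were the cartilage collagens Col2a1, Col11a1 and Col11a2, which read between 3.95 and 41.2 on every array.

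**Figure D2:**
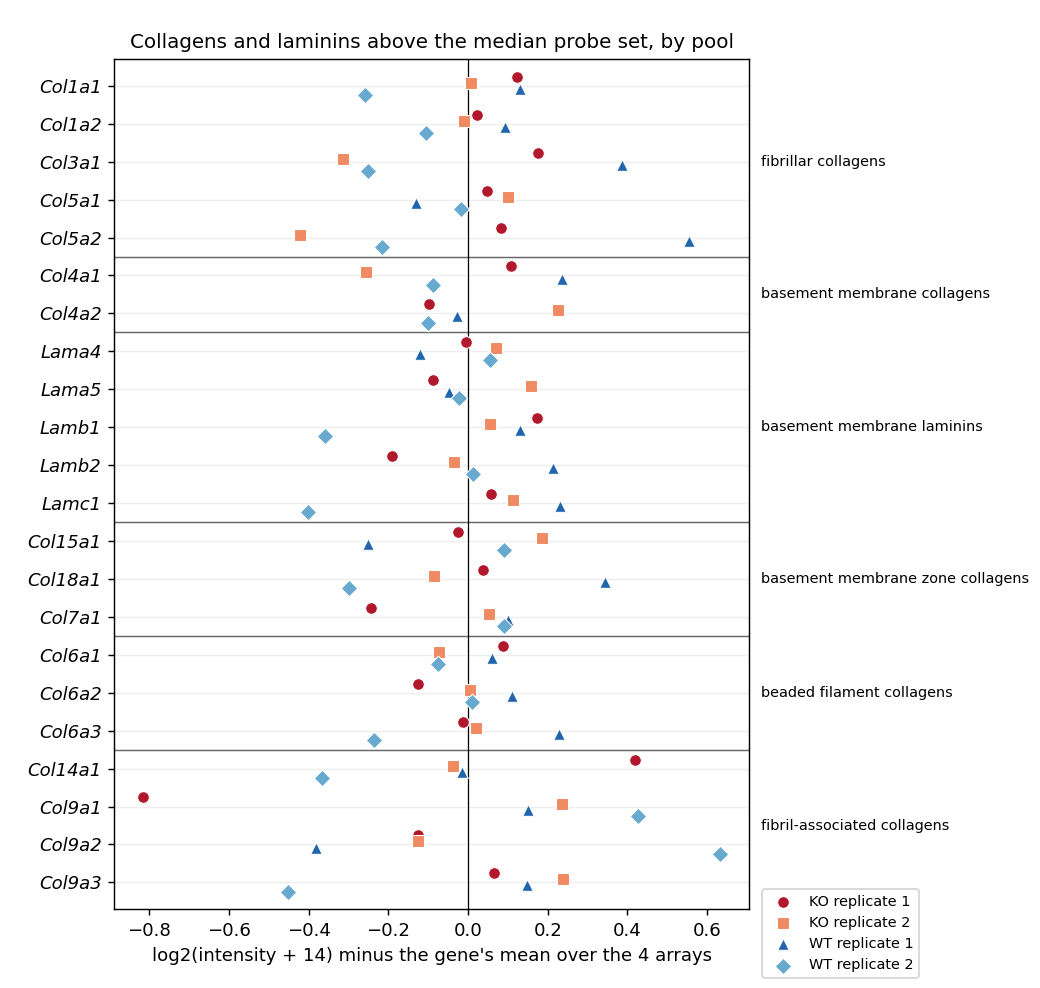
Signal of the 22 members above the median probe set in each pool, as log2(intensity + 14) minus the gene's mean over the 4 arrays (horizontal axis), grouped by role. Each point is 1 pool of 2 mice, with KO pools in red and orange and WT pools in blue. WT replicate 1 (dark triangles) lies right of WT replicate 2 (light diamonds) for 16 of the 22 genes.

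Type IV collagen, the network-forming collagen of all basement membranes, was measured mainly through its ubiquitous chains Col4a1 and Col4a2. Col4a1 read 805 and 623 in the KO pools, against 881 and 701 in the WT pools, with replicate 1 higher in both genotypes. Its log2 fold change was -0.15 ± 0.17 (95% interval -0.56 to 0.27). Col4a2 read 677 and 851 in the KO pools, against 712 and 676 in the WT pools, with KO replicate 2 apart and the other 3 arrays close together. Its log2 fold change was 0.13 ± 0.14 (95% interval -0.21 to 0.47). The genotype differences of the pair thus had opposite signs, and both changed sign without KO replicate 2, to 0.034 for Col4a1 and -0.034 for Col4a2. The chains of more restricted tissues were dim. Col4a3 read between 3.74 and 9.92, Col4a4 between 6.97 and 18.4, and Col4a5 21.5 and 12.2 in the KO pools, against 21.7 and 50.2 in the WT pools.

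Col4a1 and Col4a2 lie head to head on opposite strands, and their RefSeq promoter windows are shown because the pools did not order the pair alike. The annotated starts are 21 bases apart and lie so that the first bases of both transcripts overlap. The capitals mark the 78 bases that both windows share, read on opposite strands. Neither window holds TATAA, and bases past the windows were not searched. The motif GGGCGG, in either orientation, matched 1 time in the Col4a1 window and 3 times in the Col4a2 window, and occurs in 35.7% of all windows. The Col4a1 match lies in the shared bases, so it is also 1 of the 3 in the Col4a2 window. CCAAT matched 1 time in each window.
Col4a1, GRCm38.p6 chr8:11312777-11313076, minus strand: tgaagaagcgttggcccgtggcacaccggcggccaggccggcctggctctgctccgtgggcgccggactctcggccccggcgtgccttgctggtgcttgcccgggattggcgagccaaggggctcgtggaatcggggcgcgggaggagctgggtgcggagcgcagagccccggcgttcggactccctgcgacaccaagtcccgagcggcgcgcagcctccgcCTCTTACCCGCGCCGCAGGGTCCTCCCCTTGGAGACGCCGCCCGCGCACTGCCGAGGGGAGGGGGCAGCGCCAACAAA
Col4a2, GRCm38.p6 chr8:11312555-11312854, plus strand: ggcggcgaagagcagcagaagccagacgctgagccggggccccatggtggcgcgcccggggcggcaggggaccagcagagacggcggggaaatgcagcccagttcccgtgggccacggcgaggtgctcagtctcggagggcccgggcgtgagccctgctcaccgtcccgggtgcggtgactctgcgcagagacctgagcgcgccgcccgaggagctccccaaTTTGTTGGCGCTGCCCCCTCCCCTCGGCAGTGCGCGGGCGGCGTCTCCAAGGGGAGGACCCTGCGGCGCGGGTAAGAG

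Laminin alpha chains carry the sites that cell receptors bind, and neither of those of vessels and nerve passed the test, though probe sets of Lama5 disagreed. Lama4, the alpha 4 chain of capillary and nerve laminins, read 287 and 303 in the KO pools, against 264 and 300.1 in the WT pools (log2 fold change 0.064 ± 0.15, 95% interval -0.29 to 0.42). Lama5, the alpha 5 chain of vascular and synaptic laminins, read 299 and 357 in the KO pools, against 308 and 314 in the WT pools (log2 fold change 0.070 ± 0.15). A dimmer Lama5 probe set read 42 and 22.2 in the KO pools, against 60.7 and 94.4 in the WT pools, with no overlap. That probe set had the smallest unadjusted p of all 57, at 0.0456, and its log2 fold change of -1.0 ± 0.40 did not pass adjustment (limma adjusted p = 0.902). Lama1, of embryonic basement membranes, and Lama3, of epithelia, were dim, at no more than 22.2 and 45.7 on any array.

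Among the beta and gamma chains, Lamb2 was the 1 member above the median probe set whose genotypes did not overlap. Lamb2, the beta 2 chain concentrated at the neuromuscular synapse, read 349 and 391 in the KO pools, against 468 and 405 in the WT pools, lower in both KO pools. The log2 fold change of -0.23 ± 0.14 kept its sign whichever array was left out, at -0.33 to -0.13, but did not pass the test (limma adjusted p = 0.908). Lamb1, the beta 1 chain, read 154 and 140.3 in the KO pools, against 149 and 102 in the WT pools. Lamc1, the gamma 1 chain shared by most laminins, read 166 and 173 in the KO pools, against 189 and 117 in the WT pools. On these probe sets WT replicate 2 was the lowest array for both genes and the other 3 lay close together. Their log2 fold changes were 0.23 ± 0.25 and 0.17 ± 0.26, and without WT replicate 2 they became -0.017 and -0.14. A dimmer Lamc1 probe set read 4.68 and 8.07 in the KO pools, against 5.44 and 27.3 in the WT pools. There WT replicate 2 was the highest array (log2 fold change -0.48 ± 0.39). The dimmer Lamb1 probe set kept the sign, at 0.12 ± 0.32. The epithelial chain Lamb3 did not exceed 17.1 on its brighter probe set. Of the 13 basement membrane members, 8 were higher in KO and 5 lower. Their median log2 fold change was 0.064, and its sign turned without KO replicate 2 or WT replicate 1.

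Of the collagens that anchor or flank basement membranes, Col7a1 did not overlap between genotypes. Col7a1, the chain of anchoring fibrils, read 195 and 242 in the KO pools, against 251 and 249 in the WT pools (log2 fold change -0.19 ± 0.17). The WT values were nearly equal and KO replicate 1 was the lowest, and without it the log2 fold change was -0.044. Col15a1, a proteoglycan collagen of muscle and capillary basement membranes, read 226 and 264 in the KO pools, against 191 and 246 in the WT pools (log2 fold change 0.16 ± 0.19). Col18a1, the precursor of endostatin, read 122 and 111 in the KO pools, against 154 and 93.9 in the WT pools (log2 fold change -0.047 ± 0.28), with both KO pools between the WT pools. Its second probe set above the median had the WT pools between the KO pools instead, at 77.6 and 133 in the KO pools, against 83 and 122 in the WT pools.

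Type VI collagen forms beaded microfibrils that link the fibre's basement membrane to the surrounding matrix, and 3 of its chains were measured. Col6a1 read 723 and 646 in the KO pools, against 709 and 645 in the WT pools, with a log2 fold change of 0.016 ± 0.12 and an interval equal to 0.827- to 1.24-fold. Col6a2 read 485 and 532 in the KO pools, against 574 and 534 in the WT pools, slightly lower in both KO pools (log2 fold change -0.12 ± 0.12, limma adjusted p = 0.913). Col6a3 read 754 and 772 in the KO pools, against 894 and 645 in the WT pools, with the KO pools inside the WT range, a log2 fold change of 0.0078 ± 0.17 and a wider interval of -0.40 to 0.41. Col6a1 and Col6a2 are neighbouring genes in the reference assembly. Their KO pools ran in opposite order on the brighter Col6a1 probe set. On the dimmer Col6a1 probe set, given below, all pools ran in the same order as for Col6a2.

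Collagens that attach to fibril surfaces gave wider intervals. Col14a1, of dense connective tissue, read 112 and 78 in the KO pools, against 79.4 and 59.3 in the WT pools (log2 fold change 0.38 ± 0.32, 95% interval -0.38 to 1.15). The type IX chains known from cartilage fibrils lay near the median probe set and did not follow one another. Col9a1 read 42.4 and 103 in the KO pools, against 96.2 and 119 in the WT pools, with KO replicate 1 far below the other arrays. Col9a2 read 89.7 and 89.7 in the KO pools, against 72.9 and 161 in the WT pools, with WT replicate 2 the highest. Col9a3 read 76.2 and 87.5 in the KO pools, against 81.4 and 49 in the WT pools, with WT replicate 2 the lowest. Their log2 fold changes were -0.58 ± 0.40, -0.25 ± 0.37 and 0.30 ± 0.33. Without KO replicate 1 Col9a1 was -0.052, and without WT replicate 2 Col9a2 was 0.25 and Col9a3 0.0045.

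The 17 members at or below the median probe set had mean signals from 3.61 to 55.8, and 9 were higher in KO and 8 lower. Besides the chains named above they were Col12a1 and Col19a1, which attach to fibrils, Col22a1 of the myotendinous junction, Col8a1 and Col10a1, which form networks in vessels and growing cartilage, Col13a1 of the neuromuscular synapse, Col17a1 of epithelial hemidesmosomes, and Col26a1. Col17a1 read 14.8 and 25.4 in the KO pools, against 14.8 and 6.18 in the WT pools, and its lowest KO value exceeded the highest WT value by less than the rounding. Col2a1 was also higher in KO without overlap, at 11.1 and 11 in the KO pools, against 9.91 and 3.95 in the WT pools. Col4a5, given above, and Col22a1 were lower in KO without overlap, and Col22a1 read 1.96 and 2.80 in the KO pools, against 3.21 and 6.46 in the WT pools. No difference at this level passed the test, and SEs reached 0.54 log2 units. The files used here hold no detection calls.

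Probe sets of 1 gene disagreed in sign for 8 of the 14 genes that had several. Col18a1 had 5 probe sets, with log2 fold changes from -0.42 to 0.69, 3 of them higher in KO and 2 lower. Of the 6 genes with 2 probe sets above the median, Col1a1 and Col1a2 kept 1 sign, and Col3a1, Col5a1, Col6a1 and Col18a1 had opposite signs. The second Col6a1 set read 130.1 and 135 in the KO pools, against 189 and 143 in the WT pools, lower in both KO pools. The sources used here do not say which transcript variants a probe set detects. Sets whose identifier carries f, which include those used for Lamb1 and Lamc1, are named by the manufacturer for probes shared within a sequence family.

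**Figure D3:**
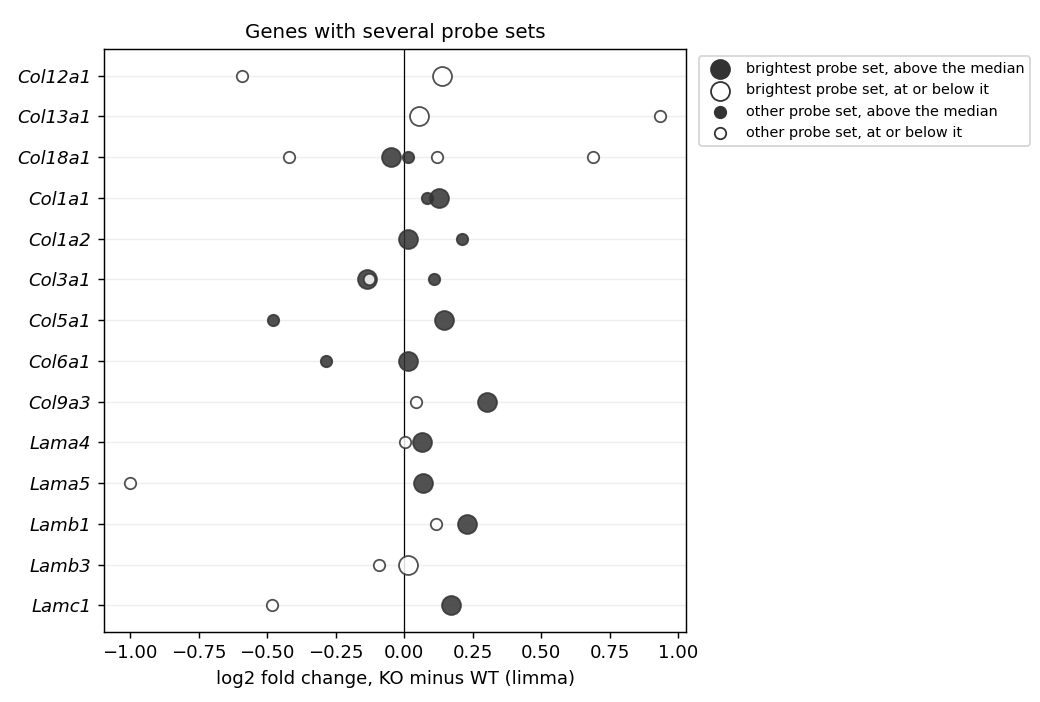
Log2 fold change of KO against WT (horizontal axis) for every probe set of the 14 genes with more than 1. Large points are the brightest probe set of the gene, small points the others, and filled points lie above the median probe set. Signs differ within 8 genes, with the widest spreads in Col18a1 and Lama5.

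Differences between pools of 1 genotype were as large as those between genotypes, and the WT pools stood further apart. Among the 22 members above the median probe set, the median absolute log2 fold change between genotypes was 0.15, against 0.14 over all genes above it. This is a difference between means of 2 pools, while a gap is between single pools and varies more even where genotypes do not differ. The median absolute gap between pools was 0.16 within KO and 0.33 within WT, against 0.20 and 0.18 over all genes above the median probe set. KO replicate 1 exceeded KO replicate 2 for 9 of the 22, against 48.6% of such genes. WT replicate 1 exceeded WT replicate 2 for 16 of the 22 (72.7%), against 50.4% of such genes. Among the 17 dimmer members it did so for 6, with a median gap of -0.25 log2 units, which makes 22 of all 39. The genotype difference exceeded the gaps within both genotypes for 2 of the 22, against 22.6% of all genes above the median probe set.

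Markers of other cells moved with some of these pool differences, and their part in the matrix values was not tested. Of 10 fibroblast and tendon markers measured out of 14, 7 were higher in KO replicate 1 than in KO replicate 2 and 7 higher in WT replicate 1 than in WT replicate 2, with median gaps of 0.24 and 0.31 log2 units. Their summed level was 7667 and 7112 in the KO pools and 7896 and 7426 in the WT pools. Between the WT pools, 8 of 9 adipocyte markers and 9 of 10 lymphocyte markers were higher in replicate 1, and 12 of 14 liver markers were higher in replicate 2. Summed adipocyte markers read 5591 and 4784 in the KO pools and 5945 and 4577 in the WT pools. Summed lymphocyte markers read 3408 and 4645 in the KO pools and 5507 and 3435 in the WT pools. Such sums are weighted towards the brightest genes of a list, which were Dcn, Lpl and Ighm in the fibroblast, adipocyte and lymphocyte lists. Lpl alone read 2396 and 2103 in the KO pools, against 2149 and 2063 in the WT pools. Ighm alone read 2470 and 3505 in the KO pools, against 4455 and 2919 in the WT pools. By gene, 7 lymphocyte markers were higher in KO and 3 lower (median log2 fold change 0.26). Endothelial markers, from cells that make type IV collagen and Lama4, summed to 2258 and 2449.6 in the KO pools and 2381 and 2253 in the WT pools. Markers of Schwann cells, which also lay down a basement membrane, summed to 1097 and 1040.4 in the KO pools and 892 and 1121 in the WT pools. By gene, 4 endothelial markers were higher in KO and 7 lower (median log2 fold change -0.12). For Schwann cell markers 5 were higher and 2 lower (median 0.098). No marker was listed at 0 on any array. In whole muscle, fewer cells of a type and less RNA per cell cannot be told apart.

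**Figure D4:**
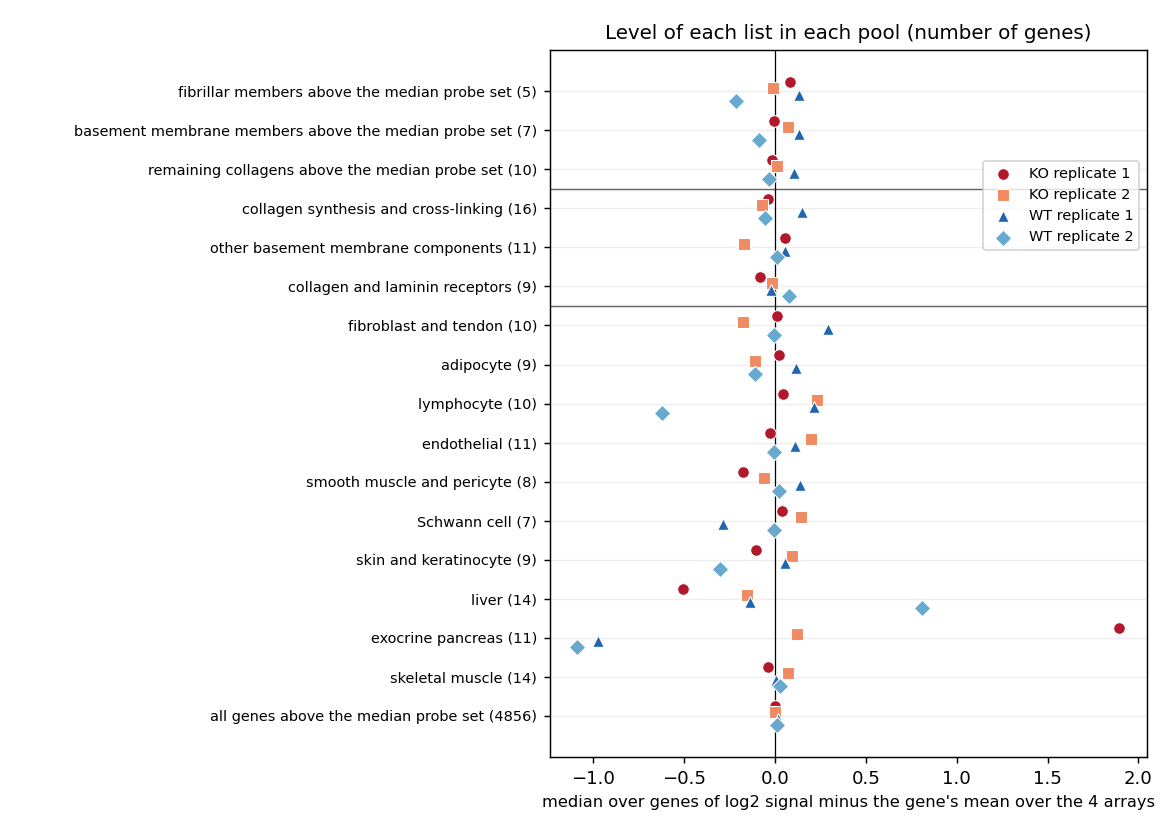
Median over the genes of a list of log2(intensity + 14) minus each gene's mean over the 4 arrays (horizontal axis), for the members above the median probe set in 3 groups by role, the partner lists and the cell type markers, with the number of genes in brackets. KO pools are red and orange, WT pools blue. These member groups lie within -0.22 to 0.13, while liver markers reach 0.81 in WT replicate 2 and exocrine pancreas markers 1.90 in KO replicate 1.

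Genes that process and cross-link collagen were mostly lower in KO without passing the test. Of 16 measured, 4 were higher and 12 lower, and their median log2 fold change was -0.093, against -0.0044 over all genes. That median was 0.0082 without WT replicate 1 and -0.23 without WT replicate 2. None passed adjustment, and at an unadjusted limma p under 0.05 there were 1 higher, where 2.5% of all genes were, and 2 lower, where 2.98% were. Mia3, which loads procollagen into transport carriers at the endoplasmic reticulum, read 352 and 325 in the KO pools, against 418 and 472 in the WT pools (log2 fold change -0.38 ± 0.13, limma adjusted p = 0.846). Ppib, a prolyl isomerase that helps procollagen fold, read 358 and 299.9 in the KO pools, against 472 and 397 in the WT pools (log2 fold change -0.39 ± 0.16, limma adjusted p = 0.908). P3h3, a member of the prolyl 3-hydroxylase family and the 1 gene that was higher at an unadjusted p under 0.05, read 49.1 and 44.7 in the KO pools, against 19.6 and 21.1 in the WT pools (log2 fold change 0.82 ± 0.33, limma adjusted p = 0.908). Serpinh1, the collagen chaperone, read 329.6 and 369 in the KO pools, against 327 and 347 in the WT pools and did not separate the genotypes. Some stromal marker lists lay the same way, and their part in these values was not tested. Of 8 markers of smooth muscle and pericytes, 6 were lower and 2 higher (median log2 fold change -0.16). Their summed level was 1623 and 1754 in the KO pools and 1965 and 1769.8 in the WT pools. Pdgfrb, a receptor of pericytes, had the smallest p of these. It read 95.8 and 91.2 in the KO pools, against 141 and 165 in the WT pools (log2 fold change -0.63 ± 0.22, limma adjusted p = 0.846). Of 10 fibroblast and tendon markers 6 were lower and 4 higher, by up to 0.27 (median -0.066), where 4189 of all 8251 genes were lower. Fap, a surface protease of fibroblasts, had the smallest p of these markers. It read 63.1 and 47.1 in the KO pools, against 136 and 95.4 in the WT pools (log2 fold change -0.90 ± 0.32, limma adjusted p = 0.846).

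Of 11 other basement membrane components, 6 were higher in KO and 5 lower, and none passed (median log2 fold change 0.019). Smoc2 and Smoc1, calcium-binding matrix proteins related to Sparc, differed in opposite directions, by -0.22 ± 0.13 and 0.39 ± 0.25. Smoc2 read 481 and 419 in the KO pools, against 508 and 543 in the WT pools, lower in both KO pools. Smoc1 read 144 and 159.7 in the KO pools, against 136 and 91.9 in the WT pools, higher in both. With 1 array left out Smoc2 ranged over -0.31 to -0.12, weakest without KO replicate 2, and Smoc1 over 0.14 to 0.64, weakest without WT replicate 2. Of 9 collagen and laminin receptors, 4 were higher and 5 lower (median -0.052), again with 0 past adjustment and 1 at an unadjusted limma p under 0.05, which was lower in KO, as were 2.98% of all genes. That was Ddr1, a receptor tyrosine kinase bound by collagen, at 87.6 and 93.2 in the KO pools, against 144 and 143 in the WT pools (log2 fold change -0.60 ± 0.22, limma adjusted p = 0.859). Itgb1, the beta subunit shared by the collagen- and laminin-binding integrins, read 2350.1 and 2337 in the KO pools, against 2828 and 2495 in the WT pools, lower in both KO pools (log2 fold change -0.18 ± 0.11, and -0.090 without WT replicate 1). Ddr2, the other collagen-binding receptor of the Ddr1 family, lay the other way, at 51 and 37.8 in the KO pools, against 16.7 and 33.6 in the WT pools (log2 fold change 0.60 ± 0.39, limma adjusted p = 0.908).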

How the data were processed

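RNA pools of 2 mice were hybridised to Affymetrix U74Av2 arrays, 2 per genotype, per the labels. The authors deposited a signal intensity for each probe set on a linear scale. The probe summary, background correction and genome build behind them were not given in the sources used here. Trimmed of 2% at either end, every array had a mean of 200.2, so the authors had scaled the arrays to each other. Array medians ran from 67.6 to 71.2, a largest difference of 0.061 on the log2 scale, so no scaling was added. The 66 control probe sets were left out, and log2(intensity + 14) was modelled on genotype alone by lmFit and eBayes with a trend (limma 3.58.1, R 4.3.3). The pseudocount of 14 is 20% of the median intensity. Benjamini-Hochberg adjustment ran over all 12422 probe sets, with a threshold of 0.05 (two-sided). No filter on level was used in the fit, which was tested on simulated data.

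Symbols came from the platform annotation, which gave 1 symbol to 10833 probe sets, several to 396 and none to 1193, and were updated through gene identifiers of GRCm38.p6 (10817 matched). Members and lists were chosen with earlier results of these data known, so lists are described by counts and medians and not tested. Named were Crhr2, every member above the median probe set and the 2 genes of each partner list with the smallest p. Acta1, Fap, Pdgfrb, P3h3, Serpinh1, Ddr2, Dcn, Lpl, Ighm and the dim members given with values were chosen after their values were seen. The p-values set each difference against the spread between pools, which eBayes moderates with that of probe sets of similar brightness. The alternatives were other pseudocounts, scalings, filters, a replicate block and each array left out. The number of arrays limits the precision.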

Additional observations from a re-analysis of the deposited data

How the results depend on the processing

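The number of probe sets called between genotypes was 0 under every alternative run: other pseudocounts (1 and 56), median centring, quantile normalization, a filter on low signal, eBayes without a trend, the replicate block and each array left out. Fits without 1 array assume that the lone array of its genotype varies like the other genotype's arrays. Same-numbered pools did not deviate together (r = 0.0034 across 12422 probe sets, which are not independent), and the labels tie the numbers to no litter or day, so the numbers were not read as pairs. With the replicate block, the fibrillar median stayed 0.071 and the basement membrane median 0.064, and 0 probe sets were called. The fibrillar median ranged over -0.076 to 0.15 with 1 array left out. The basement membrane median of 0.064 ranged over -0.013 to 0.10 with 1 array left out, and was 0.023 with 4 times the pseudocount and 0.010 over every member probe set. For partner lists, tried after seeing the data, leaving out 1 array gave -0.23 to 0.0082 for collagen synthesis and cross-linking, -0.16 to 0.13 for other basement membrane components and -0.11 to -0.0012 for receptors. Members higher in KO, likewise tried after seeing the data, numbered 16 to 23 of 39 with 1 array left out, the lowest without WT replicate 2.

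Of the 22 members above the median probe set, 7 kept the sign of their difference whichever array was left out. Their log2 fold changes ranged over 0.15 to 0.61 for Col14a1, 0.090 to 0.20 for Col5a1, -0.19 to -0.056 for Col6a2, -0.34 to -0.044 for Col7a1, -1.10 to -0.052 for Col9a1, 0.0045 to 0.60 for Col9a3 and -0.33 to -0.13 for Lamb2. The log2 fold changes of the other 15 changed sign in at least 1 such fit. They ranged over -0.0098 to 0.33 for Col15a1, -0.37 to 0.27 for Col18a1, -0.066 to 0.32 for Col1a1, -0.086 to 0.11 for Col1a2, -0.45 to 0.18 for Col3a1, -0.33 to 0.034 for Col4a1 and -0.034 to 0.29 for Col4a2. They also ranged over -0.72 to 0.046 for Col5a2, -0.064 to 0.095 for Col6a1, -0.22 to 0.24 for Col6a3, -0.76 to 0.25 for Col9a2, -0.023 to 0.15 for Lama4, -0.053 to 0.19 for Lama5, -0.017 to 0.47 for Lamb1 and -0.14 to 0.49 for Lamc1. Col6a3 was also -0.0049 with arrays centred on equal medians. The causes were not tested. With 2 pools a genotype and no detection calls used here, small differences of dim members cannot be resolved.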
